A study of Mus musculus with 28 samples.

Results

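NF-kB is a family of transcription factors built from the subunits encoded by *Nfkb1*, *Nfkb2*, *Rel*, *Rela* and *Relb*, which bind DNA as dimers at kB sites. In resting cells, IkB proteins hold the dimers in the cytoplasm. After an inflammatory signal the IkB kinase (IKK) complex marks IkB for destruction, the dimers enter the nucleus, and among the genes they induce are their own brakes, such as *Nfkbia*, *Nfkbie* and *Tnfaip3*. *Bcl3* encodes an unusual, mainly nuclear IkB protein that binds p50 and p52 homodimers. In the skeleton the pathway is known for its part in osteoclast formation and in the response of stromal cells to inflammation.

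The 10 genes described here are *Bcl3*, the 5 subunit genes, the IkB genes *Nfkbia* and *Nfkbie*, *Tnfaip3*, which encodes the ubiquitin-editing enzyme A20, and *Birc3*, which encodes the ubiquitin ligase cIAP2. They were taken by name from the pathway, out of 53801 genes in the bulk RNA tables, and *Bcl3* was included because the study had named it, from these libraries, as higher in both mutant populations. The direction of *Bcl3* RNA is therefore a description and not independent evidence. All 10 genes passed the filter on low counts in every RNA comparison.

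The study removed *Zmpste24* (Z24), the protease that matures lamin A, from limb mesenchyme with Prx1-Cre, in C57BL/6 mice that carried the Ai9 reporter. The bulk libraries came from 20-week-old mice and from sorted populations, growth plate skeletal stem/progenitor cells (gpSSPCs, Ai9+ CD73+) and periosteal ones (pSSPCs, Ai9+ Sca1+), each as control and conditional knockout (CKO) with 3 RNA and 3 ATAC libraries per group. The titles give these groups, whereas the genotype field carries PrxCre; Z24fl/fl for all of the bulk libraries, so that the exact control genotype is not settled by the labels. Single-cell RNA libraries, 1 per group, came from Ai9+ cells of Osx-Cre and Prx1-Cre mice at 8 weeks and of Prx1-Cre mice with Z24fl/+ (control) or Z24fl/fl (CKO) at 16 weeks, and the 16-week libraries pooled several mice. Prx1-Cre acts in limb bud mesenchyme and its descendants, so that other cells keep Z24, and the sort had removed cells with CD31, CD45 or Ter119. Within the bulk RNA, 1000 cells entered each library, and the total counts of unique molecules ran from 1333260 to 5315709.

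As a check of the labels, *Zmpste24* RNA was read in every library. Control gpSSPCs held 11, 48 and 80 counts (4.75, 14.9 and 16.1 counts per 1000000, CPM) and CKO gpSSPCs 2, 21 and 29 (1.17, 8.29 and 7.53 CPM). In pSSPCs it had 1, 51 and 84 counts in control (0.849, 15.8 and 16.3 CPM) and 0, 28 and 41 in CKO libraries (0, 7.78 and 7.11 CPM). Each CKO library was lower than the control library of the same replicate number, although the counts of replicate 1 were few. Of the 16-week single-cell libraries, the one labelled control had 70 *Zmpste24* UMIs (19.4 CPM, 95% exact Poisson interval 15.1 to 24.5) and the one labelled CKO had 11 (3.14 CPM, 1.57 to 5.62). The methods of the study attach the smaller of the 16-week cell numbers to the CKO mice, whereas in the files the library labelled control holds fewer cells. The labels were followed, and all 16-week genotype values rest on them. The chondrocyte marker list summed to between 15350 and 44270 CPM in the 6 gpSSPC libraries and between 4053 and 9546 in the 6 pSSPC libraries, with *Col2a1* the most abundant gene in it.

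Replicates 2 and 3 of each RNA group were nearly the same library. Over genes with 5 to 99 counts their chi-square per degree of freedom was 0.82 to 0.98, against 10.1 to 13.1 for either of them with replicate 1. Over genes with 20 or more counts it was 1.59 to 1.92, against 53.2 to 71.5. They differed by less than the sampling noise at low counts, so they were summed and counted as 1 sample, which left n = 2 per group. At an equal depth of 1333260 counts, replicate 1 libraries detected between 12082 and 12469 genes and the others between 14235 and 15282. Nothing in the labels says that libraries came from separate animals, so that p-values measure only the spread between these samples.

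Matches to the kB consensus, the 10-base site that NF-kB dimers bind, were searched on both strands of the RefSeq promoter windows, which run from 250 bases before to 50 bases after each start site. Of the 10 genes, 8 had a window and 6 of those held a match (*Bcl3*, *Nfkbia*, *Nfkbie*, *Nfkb2*, *Rel* and *Tnfaip3*), beside 9.55% of all 27025 genes with a window. *Rela* and *Birc3* had none in theirs, and *Nfkb1* and *Relb* had no window. The promoters of *Bcl3*, *Nfkbia* and *Nfkb2* are shown for the following reasons. *Bcl3* is the gene named by the study, and the peaks called around *Nfkbia* differed between the populations. The first of the 3 *Nfkb2* windows held more than 1 site. The sequences are from RefSeq (build GRCm38.p6), 5′ to 3′ on the strand of the gene, with kB matches in capitals. The sequences of *Nfkbia* and *Nfkb2* end just before the start site and that of *Bcl3* goes on for 15 bases after it.
Bcl3 chr7:19822741-19823005 (minus strand): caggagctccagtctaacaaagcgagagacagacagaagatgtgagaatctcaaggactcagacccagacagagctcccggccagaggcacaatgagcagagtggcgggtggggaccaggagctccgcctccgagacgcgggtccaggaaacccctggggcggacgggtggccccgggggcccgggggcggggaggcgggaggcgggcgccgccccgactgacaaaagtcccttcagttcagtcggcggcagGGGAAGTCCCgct
Nfkbia chr12:55492648-55492897 (minus strand): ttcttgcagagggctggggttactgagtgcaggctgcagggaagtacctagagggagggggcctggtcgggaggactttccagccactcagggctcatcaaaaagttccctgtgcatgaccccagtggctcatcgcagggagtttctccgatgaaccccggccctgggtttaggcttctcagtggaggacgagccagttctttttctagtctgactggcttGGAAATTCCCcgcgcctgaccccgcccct
Nfkb2 chr19:46304487-46304736 (plus strand): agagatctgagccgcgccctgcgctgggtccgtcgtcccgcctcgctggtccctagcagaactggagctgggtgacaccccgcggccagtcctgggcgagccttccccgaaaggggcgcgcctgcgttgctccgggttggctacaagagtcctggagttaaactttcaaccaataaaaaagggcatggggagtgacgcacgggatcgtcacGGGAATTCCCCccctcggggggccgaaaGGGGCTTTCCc

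The match in *Bcl3*, GGGAAGTCCC, lay across the first transcribed bases, starting 2 bases after the first. That in *Nfkbia*, GGAAATTCCC as read on the strand of the gene, began 29 bases before the start site. *Nfkb2* held 2 separate sites in this window, where the longer run of capitals is a site that matched on both strands at a shift of 1 base. The *Rel* window held GGGAAATCCC in the same way, read once on each strand, that of *Tnfaip3* held GGGACACCCC and GGAAATCCCC, and that of *Nfkbie* held GGGGGATTCC. A match describes the letters in the window and does not show that a factor binds there.

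*Bcl3* RNA was higher in CKO than in control libraries in both populations, and the groups did not overlap. In gpSSPCs it was 21.6, 22.1 and 19.4 CPM in control replicates 1, 2 and 3 and 81.9, 32.0 and 34.0 CPM in CKO replicates 1, 2 and 3 (TMM-scaled CPM). In pSSPCs it was 12.7, 17.7 and 16.5 CPM in control and 21.3, 43.1 and 39.7 CPM in CKO. The lowest CKO library stood above the highest control library in each population, and the replicate 1 library of CKO gpSSPCs was the highest of all 12. With replicates 2 and 3 counted as 1 sample, the means were 20.6 ± 0.415 and 56.3 ± 32.7 CPM in control and CKO gpSSPCs and 14.8 ± 3.43 and 31.0 ± 14.5 CPM in control and CKO pSSPCs (SD, n = 2). The log2 fold change was 1.44 ± 0.64 (SE) in gpSSPCs and 1.09 ± 1.06 in pSSPCs, and neither passed edgeR's quasi-likelihood test with Benjamini-Hochberg adjustment (adjusted p = 1 in each; unadjusted p = 0.0551 and 0.331). Without replicate 1 of both genotypes, which leaves a value with no test, the *Bcl3* log2 fold changes were 0.69 and 1.24. With each library taken as 1 sample, the *Bcl3* log2 fold changes were 1.23 ± 0.43 and 1.18 ± 0.47, with adjusted p of 0.9998 and 0.655. With the replicate number as a block they were 1.30 ± 0.52 and 1.04 ± 1.05, also past no adjusted threshold. In sorted bulk samples, fewer cells of a type and less RNA per cell cannot be told apart.

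The separation of libraries seen for *Bcl3* was read against all genes. Of the 10 members it was the only one whose 3 CKO libraries were all above the 3 control libraries in gpSSPCs, as were 6.54% of the 12041 genes tested, and the only one in pSSPCs, as were 9.11% of 11878. The opposite order, all CKO libraries below all control libraries, held for no member and for 8.16% and 8.72% of the genes. Higher in both populations in this sense were 94 of the 11172 genes tested in both, or 0.841%, and *Bcl3* was among them. No test was run on these counts, and the near identity of replicates 2 and 3 makes such separation easier to reach.

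**Figure D1:**
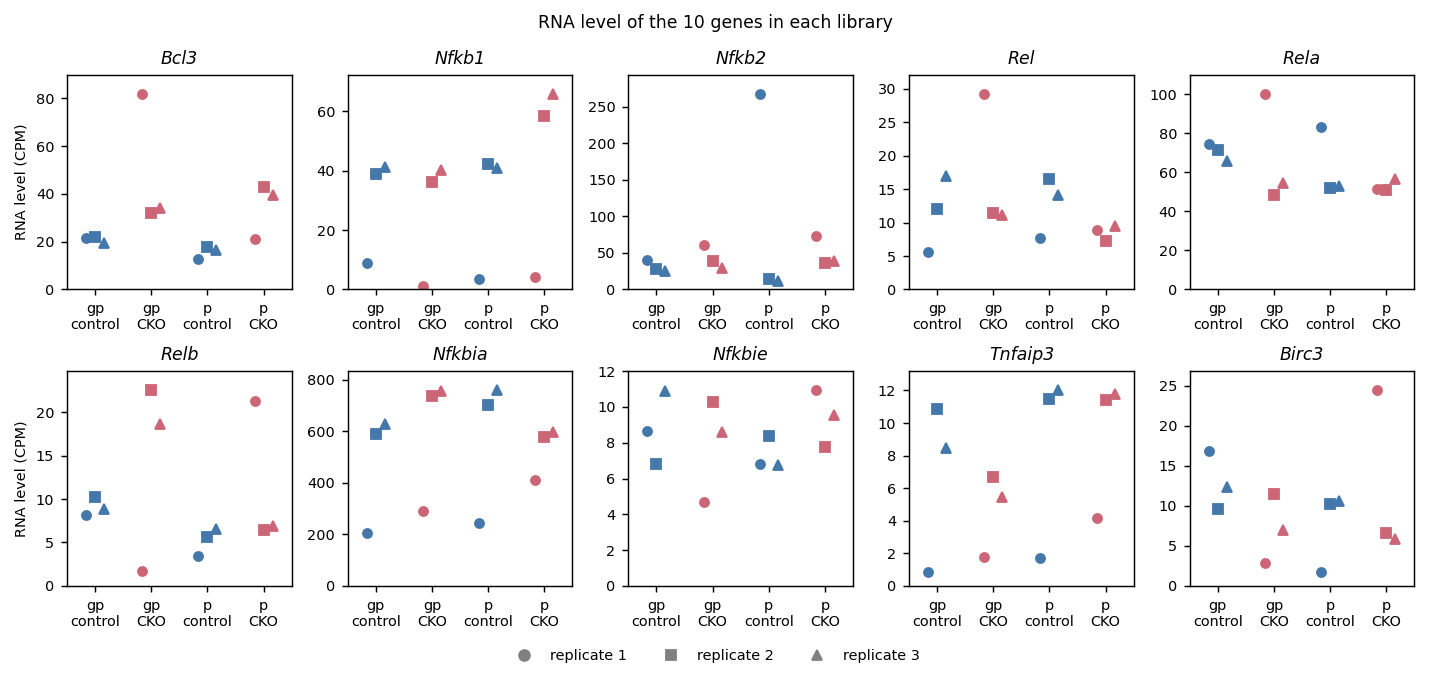
RNA level (TMM-scaled CPM, linear axis from 0) of each gene in the 12 bulk libraries, by population and genotype, with 1 point per library and the shape giving the replicate number. For *Bcl3* the CKO points lie above the control points in both populations, whereas for *Nfkb1*, *Nfkbia* and *Tnfaip3* the circles of replicate 1 lie below all other points.

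Across all genes the genotype comparisons made no call at an adjusted p under 0.05 with edgeR, so that 0% of genes and 0 of 10 members were called in gpSSPCs, in pSSPCs, between the control populations and for the difference in genotype effect. The counts at an unadjusted p under 0.05 were 57 genes in gpSSPCs, 142 in pSSPCs, 815 between control populations and 125 for the difference. DESeq2 on the same samples called 1, 0, 251 and 0 genes, none of them a member. The study's thresholds were a log2 fold change of more than 0.25 in size together with an unadjusted p below 0.05. By these the same edgeR fit had 37 genes higher (0.307%) and 20 lower (0.166%) in CKO gpSSPCs and 31 higher (0.261%) and 111 lower (0.935%) in CKO pSSPCs, with 0 members in this fit. In other fits members did reach these thresholds. With each library as 1 sample, the layout of the study, *Bcl3* reached them in both populations with edgeR (unadjusted p = 0.0249 and 0.0402) and with DESeq2 (0.0133 and 0.0227). With the replicate block added to that layout *Bcl3* reached them in both populations and *Nfkbia* in gpSSPCs (log2 fold change 0.36 ± 0.08, unadjusted p = 0.00926, adjusted p = 0.318), and with the summed samples *Bcl3* in gpSSPCs reached them under the block or with no filter on low counts. The 10 members had a median log2 fold change of 0.22 in gpSSPCs, where 6 were positive and 4 negative, beside 0.002 over all genes. In pSSPCs the median was 0.35, with 7 positive and 3 negative, beside -0.024 over all genes.

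The subunit genes overlapped between genotypes in both populations. *Nfkb1*, which encodes the p105 precursor of p50, was 9.06, 38.8 and 41.3 CPM in control and 1.17, 36.3 and 40.3 CPM in CKO gpSSPCs. In pSSPCs it was 3.40, 42.3 and 40.9 CPM in control and 4.16, 58.6 and 65.9 CPM in CKO. Replicate 1 was low in every group. The log2 fold change was -0.28 ± 1.31 in gpSSPCs and 0.58 ± 1.43 in pSSPCs (adjusted p = 1 in each, edgeR).

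*Nfkb2*, which encodes the p100 precursor of p52, was 40.6, 27.95 and 25 CPM in control and 60.8, 39.5 and 29.9 CPM in CKO gpSSPCs, higher in CKO for each replicate number. In pSSPCs it was 267, 14.3 and 11.8 CPM in control and 72.8, 36.7 and 39.4 CPM in CKO. The control library of replicate 1 thus held the highest value of all 12 and those of replicates 2 and 3 the lowest, and the direction in pSSPCs turned on that library. The log2 fold change was 0.50 ± 0.59 in gpSSPCs and -1.29 ± 1.11 in pSSPCs, and 2.09 in pSSPCs without control replicate 1. Over 13 alternative fits the gpSSPC value kept its sign but ran from 0.05 to 0.83.

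*Relb*, whose product pairs with p52 in the non-canonical pathway, was 8.20, 10.3 and 8.87 CPM in control and 1.75, 22.5 and 18.7 CPM in CKO gpSSPCs. In pSSPCs it was 3.40, 5.59 and 6.58 CPM in control and 21.3, 6.39 and 6.93 CPM in CKO. In gpSSPCs the CKO library of replicate 1 was the lowest and the other CKO libraries the highest, while in pSSPCs the only clearly higher library was CKO replicate 1. The log2 fold changes were 0.36 ± 1.28 and 1.51 ± 1.56, and 1.07 and 0.10 without replicate 1 of both genotypes.

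*Rela*, which encodes p65, the main activating subunit, was 74.7, 71.1 and 65.5 CPM in control and 99.97, 48.2 and 54.5 CPM in CKO gpSSPCs. In pSSPCs it was 83.2, 51.9 and 52.9 CPM in control and 51.5, 50.9 and 56.7 CPM in CKO. *Rel*, which encodes c-Rel, was 5.61, 12.1 and 16.9 CPM in control and 29.2, 11.5 and 11.2 CPM in CKO gpSSPCs, and between 7.22 and 16.5 CPM in the 6 pSSPC libraries. The genotypes overlapped for both genes in both populations, with log2 fold changes of 0.09 ± 0.52 and -0.33 ± 0.71 for *Rela* and 0.93 ± 0.95 and -0.38 ± 1.44 for *Rel*. Without replicate 1 of both genotypes they were -0.37 and 0.04 for *Rela* and -0.40 and -0.775 for *Rel*. All but the last of these had the opposite sign.

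Among the inhibitors, *Nfkbia*, which encodes IkB-alpha, had the highest counts of the 10 genes except in control pSSPC replicate 1, where *Nfkb2* was higher. *Nfkbia* was 205, 592 and 629 CPM in control and 291, 736 and 758 CPM in CKO gpSSPCs, higher in CKO for each replicate number. In pSSPCs it was 244, 704 and 759 CPM in control and 411, 577 and 598 CPM in CKO, higher in CKO for replicate 1 and lower for replicates 2 and 3. The log2 fold change was 0.35 ± 0.69 in gpSSPCs and 0.03 ± 0.61 in pSSPCs. *Nfkbie*, which encodes IkB-epsilon, ran from 4.68 to 10.9 CPM over the 12 libraries, and *Tnfaip3* from 0.863 to 12 CPM, with overlapping genotypes in each population. *Birc3* was 16.8, 9.63 and 12.3 CPM in control and 2.92, 11.5 and 7.01 CPM in CKO gpSSPCs, and 1.70, 10.3 and 10.6 CPM in control and 24.4, 6.67 and 5.89 CPM in CKO pSSPCs. For *Birc3* the replicate 1 libraries were at the extremes in both populations.

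**Figure D2:**
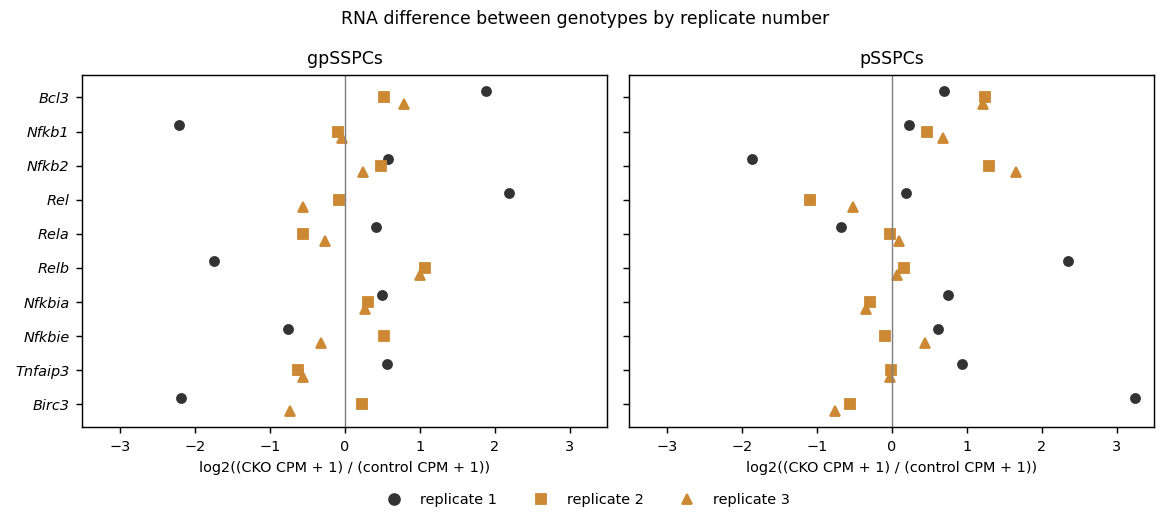
RNA difference of CKO from control for libraries of the same replicate number, as log2((CKO CPM + 1) / (control CPM + 1)), with 1 point per replicate number and gene. *Bcl3* is to the right of 0 at all 6 points (0.52 to 1.88), while *Birc3* and *Relb* have replicate 1 far from replicates 2 and 3 in both populations.

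The replicate number separated several members more cleanly than the genotype did. In all 4 groups *Nfkb1* was 1.17 to 9.06 CPM in replicate 1 and 36.3 to 65.9 CPM in replicates 2 and 3. *Nfkbia* was 205 to 411 CPM in replicate 1 and 576 to 759 CPM in the others, and *Tnfaip3* 0.863 to 4.16 against 5.46 to 12 CPM. All 4 libraries of replicate 1 were below the other 8 for these 3 members, as for 16.6% of the 13173 genes tested. *Nfkb2* had the opposite order, with 40.6 to 267 CPM in replicate 1 and 11.8 to 39.5 CPM in the others, as had 8.59% of genes. Erythroid marker RNA moved with the same split. The list of 7 genes summed to 18.1 to 156 CPM in replicate 1 and 1203 to 6679 CPM in the others. *Hbb-bs* was its most abundant gene over the 12 libraries together, and 1 of the 7 was at 0 in all libraries. Osteoblast marker RNA had the opposite order within each population. In gpSSPCs the osteoblast list summed to 61220 and 60280 CPM in replicate 1 and 17240 to 23490 CPM in the others. In pSSPCs it summed to 16050 and 15990 CPM in replicate 1 and 4612 to 4942 CPM in the others. The part of these cells in the values of the members was not tested.

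Control gpSSPCs and control pSSPCs did not differ in any member past the threshold. The log2 difference, positive where gpSSPCs were higher, was 0.47 ± 0.72 for *Bcl3*, 0.09 ± 1.60 for *Nfkb1*, -2.04 ± 1.07 for *Nfkb2*, 0.07 ± 0.54 for *Rela* and -0.28 ± 0.72 for *Nfkbia* (edgeR, adjusted p of 0.887 for *Nfkb2* and 1 for the others). The *Nfkb2* value again carried the control pSSPC library of replicate 1, and it was 1.08 without replicate 1. The genotype effect in gpSSPCs minus that in pSSPCs was 0.38 ± 1.01 for *Bcl3*, -2.43 ± 1.81 for *Birc3* and 1.81 ± 1.47 for *Nfkb2*, with an adjusted p of 0.9999 for each member. Each of these differences changed sign when a replicate number was left out of every group.

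The rest of the pathway was described from 4 lists, none of whose genes passed the adjusted threshold in either population (edgeR). Of 14 other transcription factors, IkB proteins and deubiquitinases, 13 were tested, with 7 positive and 6 negative log2 fold changes in gpSSPCs (median 0.098) and 8 and 5 in pSSPCs (median 0.512). Of 28 genes for the IKK complex, upstream kinases and adaptors, 26 were tested in gpSSPCs, with 13 in each direction, and 27 in pSSPCs, with 18 positive and 9 negative (median 0.136). Of 20 ligands and receptors, 12 were tested, with 9 positive and 3 negative in gpSSPCs (median 0.257) and 5 and 7 in pSSPCs (median -0.06). Of 35 known target genes, 19 were positive and 7 negative among 26 tested in gpSSPCs (median 0.166), and 14 and 13 among 27 in pSSPCs (median 0.096).

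Individual genes of these lists are given as values. In gpSSPCs the target *Cx3cl1*, which encodes the chemokine fractalkine, had a log2 fold change of 1.45 ± 0.55 (unadjusted p = 0.031, adjusted p = 1, edgeR), and *Cflar*, which encodes an inhibitor of caspase-8, one of 0.91 ± 0.60. *Ltbr*, the lymphotoxin-beta receptor, was at 0.95 ± 0.55, *Il1rn*, the interleukin-1 receptor antagonist, at 1.81 ± 1.11, the adaptor *Traf2* at 1.08 ± 0.69 and the kinase *Ikbke* at -2.27 ± 1.5. *Tax1bp1*, whose product works with A20, was at 0.48 ± 0.49 and the deubiquitinase *Usp7* at -1.13 ± 0.89. Without replicate 1 of both genotypes, which leaves a value with no test, *Tax1bp1* was at -0.13 and *Usp7* at 0.06, of the opposite sign, *Ikbke* at -0.60, *Cflar* at 0.29, *Traf2* at 0.36, *Cx3cl1* at 0.72, *Il1rn* at 0.95 and *Ltbr* at 0.73.

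In pSSPCs the chemokine gene *Ccl2* was at 1.36 ± 0.64 and the adhesion molecule *Icam1* at -2.18 ± 0.98 (unadjusted p = 0.0615 and 0.051, adjusted p = 1 in each, edgeR). The TNF receptor *Tnfrsf1a* was at 0.77 ± 0.56, the lipopolysaccharide co-receptor *Cd14* at -1.44 ± 0.94, *Tnip2* at 1.62 ± 0.99, the deubiquitinase *Cyld* at 1.72 ± 1.42, the adaptor *Fadd* at 1.24 ± 1.08 and *Tab2* at 1.30 ± 1.18. Without replicate 1 of both genotypes *Cd14* was at 0.02, of the opposite sign, *Cyld* at 0.09, *Fadd* at 0.14, *Tnip2* at 0.59 and *Tnfrsf1a* at 0.43, while *Ccl2* was at 1.14, *Icam1* at -1.69 and *Tab2* at 1.07. The control library of replicate 1 had 92.5 CPM of *Cd14*, against 14.0 to 30.0 CPM in the other 5 pSSPC libraries. The 3 CKO libraries were all above the 3 control libraries for 6 of 27 tested targets in pSSPCs (22.2%; *Cxcl5*, *Ccl2*, *Cx3cl1*, *Saa3*, *Ptx3* and *Ccnd1*) and for 2 of 26 in gpSSPCs (7.69%; *Cx3cl1* and *Cflar*), beside the 9.11% and 6.54% of all genes given above. All below were 1 of 27 targets in pSSPCs (*Icam1*, 3.7%) and 0 of 26 in gpSSPCs, beside 8.72% and 8.16% of all genes. In the IKK list 2 of 26 genes were all above and 3 all below in gpSSPCs, and 4 and 1 of 27 in pSSPCs. Of the ligands and receptors 2 of 12 were all above in each population. Of the list with IkB proteins and deubiquitinases, 1 of 13 genes (*Tnip2*) was all above in pSSPCs and 0 in gpSSPCs. *Cx3cl1* and *Traf2* had all CKO libraries above all control libraries in both populations, as *Bcl3* had. The endothelial marker *Plvap* and the interferon response gene *H2-D1* had the same order in both. Of the 7 endothelial markers tested in pSSPCs, *Egfl7* (14.3%, beside 8.72% of all genes) had the opposite order. It was 40.8, 33.9 and 39.3 CPM in control and 3.12, 13.3 and 18.2 CPM in CKO pSSPCs.

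Lists of markers of other cells, of dissociation stress and of the interferon response had 0 genes called in either population (edgeR), and their summed levels are given beside the members. In gpSSPCs the endothelial list of 8 genes summed to 44.0, 46.9 and 47.4 CPM in control and 122, 66.0 and 68.1 CPM in CKO. In pSSPCs it summed to 123.1, 141 and 137 CPM in control and 126, 192 and 190 CPM in CKO. *Plvap* was the most abundant gene of the list over the 12 libraries together. The chondrocyte list summed to 44270, 28470 and 29010 CPM in control and 25490, 15590 and 15350 CPM in CKO gpSSPCs. There 6 of its 9 genes (66.7%) had all CKO libraries below all control libraries, beside 8.16% of all genes. The periosteal list, which marks the cells of the other population, had 5 of its 9 genes (*Dcn*, *Igfbp6*, *Clec3b*, *Cilp* and *Cd34*; 55.6%) with all CKO libraries below all control libraries in pSSPCs and 1 (*Fn1*, 11.1%) with all above. The shares over all genes were 8.72% and 9.11%. The most abundant gene of the list was *Dcn* in the 3 control pSSPC libraries (14080, 17640 and 19720 CPM, and 6883, 10830 and 11640 CPM in CKO) and *Prg4* in the 3 CKO pSSPC libraries (7389, 25720 and 29340 CPM, and 2357, 8412 and 8630 CPM in control). The sum was 36760, 37270 and 39730 CPM in control and 27170, 48510 and 53060 CPM in CKO pSSPCs, lower in CKO for replicate 1 and higher for replicates 2 and 3. The myeloid list of 9 genes summed to 17.7, 38.2 and 35.9 CPM in control and 52.6, 47.4 and 62.9 CPM in CKO gpSSPCs. All CKO libraries were higher there, although of the 6 genes tested only *Tyrobp* was separated in that way. In pSSPCs the myeloid list summed to 17.0 to 40.4 CPM in control and 22.4 to 35.4 CPM in CKO. Of the 9 genes 1 was at 0 in all, and *Cd68* was the most abundant over the 12 libraries together. In gpSSPCs *Cd68* was higher in CKO for replicate 1 only. For replicates 2 and 3 it was 18.32 and 16.13 CPM in control and 9.084 and 5.975 CPM in CKO gpSSPCs. In the 3 CKO pSSPC libraries *Lyz2* was the most abundant gene of the list (25.47, 7.224 and 6.934 CPM). The dissociation stress list, in which *Fos* was most abundant over the 12 libraries together, summed to 18970 to 23250 CPM in the 6 gpSSPC libraries. There the genotypes overlapped. In pSSPCs it summed to 18160, 16530 and 15520 CPM in control and 14230, 15050 and 13900 CPM in CKO, with all CKO libraries lower. *Jun*, *Egr1* and *Klf6* were each separated in that way (16.7% of the list, beside 8.72% of all genes). Of 22 interferon response genes, 14 were positive and 6 negative among 20 tested in gpSSPCs (median log2 fold change 0.246) and 13 and 8 among 21 in pSSPCs (median 0.717), with *H2-D1* the most abundant gene. In pSSPCs the list summed to 1720, 2894 and 3005 CPM in control and 3596, 3430 and 3633 CPM in CKO, with all CKO libraries higher. Of the 21 genes, 5 (23.8%) had all CKO libraries above all control libraries, beside 9.11% of all genes. The opposite order held for 1 (*Isg15*, 4.76%), beside 8.72% of all genes. The part of these cells and genes in the values of the members was not tested.

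The genes whose pattern was most like that of *Bcl3* over the 8 samples (replicates 2 and 3 summed) were *S1pr1*, *Ncapd2*, *Cdc42se2*, *Slc35c1* and *Extl2*, with Pearson correlations of 0.959, 0.937, 0.931, 0.919 and 0.915 of log2(CPM + 1) among 10266 genes. These samples share replicate numbers, and the values describe them only.

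Chromatin accessibility was read from the peaks that MACS2 had called in each of 12 ATAC libraries, which kept between 12250713 and 46756821 tags and held 59209 to 101606 peaks. Overlapping peaks were merged into 176547 regions, of which 92 lay at the 10 genes or within 10 kb of them, from 3 at *Rela* to 34 at *Nfkb1*, the longest gene of the set. A peak in all 12 libraries was found at 27 of the 92 (29.3%), beside 14.3% of all regions. The region that held the annotated start site was open in all 12 libraries at each of the 10 genes, and these regions are among the 27. Some of the 92 regions, at *Nfkb2*, *Rela*, *Relb* and *Nfkbie*, lay in or within 1 kb of another coding gene. Among those, some at *Relb* and *Nfkbie* had a peak in all 12 libraries.

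At *Bcl3*, on the minus strand of chromosome 7 (GRCm38, chr7:19808462-19822770), 6 of 12 regions had a peak in every library. These were the promoter region (chr7:19822345-19823040), regions in introns at chr7:19816008-19816914 and chr7:19817135-19818121, and upstream regions with their middles at -1581, -8370 and -9385 bases from the start site. A region in an intron, chr7:19818430-19818828, had a peak in 0 of 6 gpSSPC and in 4 of 6 pSSPC libraries, 2 of each genotype. Another, at -4117 bases, was present in 2 of 3 control and 0 of 3 CKO gpSSPC libraries and in all 6 pSSPC libraries. Thus no *Bcl3* region was held by all libraries of 1 genotype and none of the other.

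Peaks gained or lost between genotypes were counted beside the same share over all regions. A region present in all 3 CKO and no control library occurred at 0 of the 76 member regions with a peak in gpSSPCs, where it occurred at 0.0459% of all regions, and at 1 of 68 in pSSPCs, beside 2.81% of all regions. The reverse, present in all 3 control and no CKO library, occurred at 0 of 76 (1.32% of all) and 0 of 68 (0.119% of all). The 1 region was in *Nfkb1*, at chr3:135594018-135595204, 96936 bases after the start site and overlapping an exon, and it was open in all 6 gpSSPC libraries of either genotype. It was no longer counted when a peak had to cover at least 50% of its merged region.

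Control libraries of the populations were compared by the same rule. Of the 78 member regions with a peak in a control library, 10 (12.8%) were present in all 3 control gpSSPC and no control pSSPC library, beside 16.2% of all regions, and 2 (2.56%) had the opposite pattern, beside 5.84% of all regions. Of those 10, 6 lay in *Nfkb1*, and the others at *Rel*, *Rela*, *Nfkbia* and *Birc3*. The one at *Rela* (chr19:5654281-5655239) lay in or within 1 kb of the coding gene *Sipa1*. Both genotypes shared the difference at 4 regions, which were present in all 6 gpSSPC and 0 of 6 pSSPC libraries. At *Nfkb1* these were chr3:135611048-135611919 and chr3:135620490-135622163, which overlap exons, and chr3:135640179-135640638 in an intron.

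At *Nfkbia* (minus strand, chr12:55489410-55492647) the populations had called peaks in different distal regions. The region at chr12:55480688-55481164, 11721 bases after the start site, was present in 6 of 6 gpSSPC and 0 of 6 pSSPC libraries. The one at chr12:55483813-55485208, 8137 bases after the start site, was present in 0 of 6 gpSSPC and 6 of 6 pSSPC libraries. Both lie downstream of the gene, with no other coding gene within 10 kb of *Nfkbia*, and the promoter (chr12:55491520-55492997) and a region at -6340 bases were open in all 12. The promoter shown above with its kB match was thus open in both populations, while the downstream regions had called peaks in 1 population each. The fold enrichment was 2.38 to 4.97 in the gpSSPC libraries at the first and 1.97 to 2.72 in the pSSPC libraries at the second. Where no peak was called the signal was not measured. Over all 176547 regions, 6.11% had the first pattern and 3.6% the second. When a peak had to cover at least 50% of its merged region, the pSSPC region was no longer counted as open only in control pSSPCs. No test was run on these counts.

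**Figure D3:**
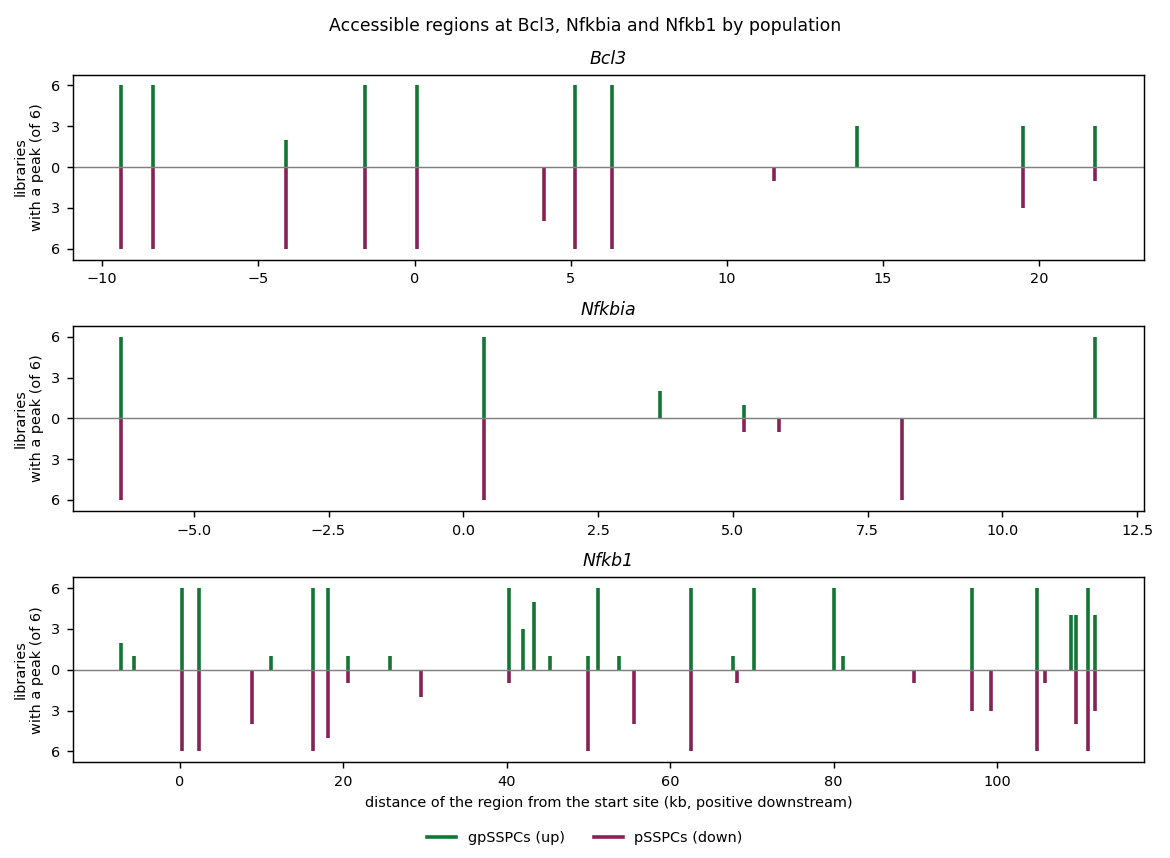
Number of ATAC libraries with a peak in each region at *Bcl3*, *Nfkbia* and *Nfkb1* (of 6 gpSSPC libraries, upward, and of 6 pSSPC libraries, downward) against the distance in kb of the middle of the region from the start site. At *Nfkbia* the 2 farthest downstream regions each have called peaks in 1 population. The pSSPC one was not counted so when a peak had to cover at least 50% of its merged region. At *Nfkb1* 3 regions reach 6 upward and none downward.

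The height of the peaks was compared in regions with a peak in all 6 libraries of a population, as median-centred log2 pileup (the fragment depth at the peak). In gpSSPCs 0 of 36 member regions were called by limma at an adjusted p under 0.05, and 0% of all 46299 regions, higher or lower (2024 regions at an unadjusted p under 0.05). In pSSPCs 0 of 31 were called, beside 1.08% of 43321 regions higher and 0.3% lower in CKO.

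At the start sites, the pileup of *Bcl3* per 1000000 tags was 5.60, 5.61 and 3.69 in control and 6.57, 5.34 and 2.21 in CKO gpSSPCs, and 6.17, 6.45 and 4.44 in control and 4.58, 6.42 and 3.91 in CKO pSSPCs. Replicate 3, the deepest of each group, had the lowest of these values in every group, and the genotypes overlapped in both populations. The log2 difference at *Bcl3* was -0.01 ± 0.16 in gpSSPCs and -0.22 ± 0.20 in pSSPCs (limma, adjusted p of 0.998 and 0.626). In CKO pSSPCs all 10 start-site regions had a negative difference, from -0.09 ± 0.19 at *Nfkb1* to -0.41 ± 0.22 at *Rela*, with a median of -0.298. Of the 10335 such regions of coding genes, 78.7% were negative, with a median of -0.165, and over all regions the median was -0.1. In CKO gpSSPCs 8 were positive and 2 negative with a median of 0.142, beside a median of 0.083 over 10599 regions. With scaling by tag number in place of the median, 3 were positive and 7 negative in gpSSPCs (median -0.045, and -0.103 over all start-site regions), and all 10 stayed negative in pSSPCs. By replicate number, on the tag scaling, the signs were not uniform. In gpSSPCs 9 of the 10 were positive for replicate 1 (all but *Nfkbie*) and all 10 were negative for replicate 3. In pSSPCs all 10 were negative for replicates 1 and 3, whereas for replicate 2 *Nfkb1* (0.43), *Birc3* (0.36), *Relb* (0.09), *Tnfaip3* (0.08) and *Nfkbia* (0.04) were positive.

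**Figure D4:**
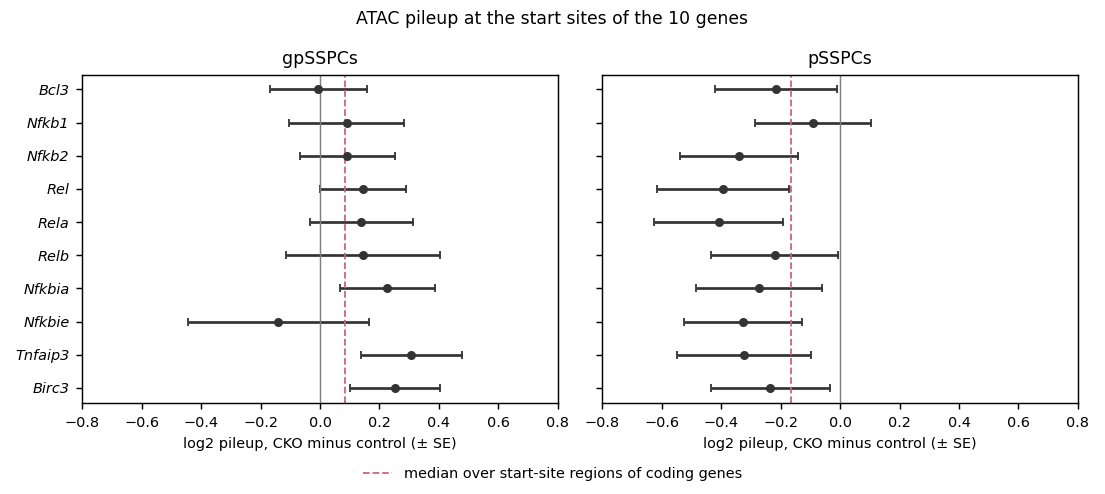
Difference in log2 ATAC pileup of CKO from control (points, with SE bars from limma, n = 3 libraries per group) at the start-site region of each gene, median-centred. The dashed line is the median over start-site regions of coding genes, 0.083 in gpSSPCs and -0.165 in pSSPCs, and all 10 points lie below 0 in pSSPCs.

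The single-cell libraries give the UMIs of the genes by cell class. After the filter (at least 200 genes per cell) they held 782 cells (Osx-Cre, 8 weeks), 993 (Prx1-Cre, 8 weeks), 2068 (control, 16 weeks) and 2362 (CKO, 16 weeks), and between 0 and 10 barcodes were shared by any pair of libraries. Clusters were named from fixed markers as bone marrow stromal (BMSC-like), osteoblast (OB-like), periosteal (PMSC-like), chondrocyte-like and pericyte-like cells, and names rebuilt in this way may differ from those of the study. An endothelial class at 8 weeks and an erythroid class at 16 weeks were also found and are not described. The BMSC-like cells at 8 weeks fell into clusters of mostly 1 library each (531 of 560 cells and 542 of 554). With 1 library per group there is no test, and the intervals (95%, exact Poisson) cover counting error only. Free RNA was not estimated, so that a few UMIs in a class cannot be told apart from background and are not read as expression.

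*Nfkbia* was the member with the most UMIs in every library. In BMSC-like cells it was 427 CPM (371 to 489) in the Osx-Cre and 511 CPM (452 to 575) in the Prx1-Cre library at 8 weeks, and 308 CPM (287 to 329) in the control and 358 CPM (337 to 380) in the CKO library at 16 weeks. In OB-like cells it was 228 CPM (173 to 295), 127 CPM (87.7 to 177), 177 CPM (139 to 223) and 80.8 CPM (49.3 to 125) in the same order. In each library the interval over all BMSC-like cells lay above that in OB-like cells, but at 16 weeks the BMSC-like cluster led by *Hbb-bs* in the control library, at 237 CPM (206 to 271), overlapped the OB-like interval. PMSC-like cells at 16 weeks gave 398 CPM (303 to 512) from 60 UMIs in control, against 128 CPM (55.5 to 253) from 8 UMIs in CKO, and in chondrocyte-like cells 294 CPM (230 to 370) and 196 CPM (112 to 318). The PMSC-like class was not alike in these libraries, since its periosteal markers summed to 46830 CPM in control and 22850 CPM in CKO, its chondrocyte markers to 46.4 and 4144 CPM and its BMSC markers to 1292 and 4722 CPM. Their part in the *Nfkbia* values was not tested.

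*Bcl3* had most of its UMIs in BMSC-like cells, the class with the most cells. In these it was 20.4 CPM (9.79 to 37.6, 10 UMIs) in the Osx-Cre and 37.0 CPM (22.6 to 57.1, 20 UMIs) in the Prx1-Cre library at 8 weeks. At 16 weeks the control library gave 39.6 CPM (32.4 to 47.8, 107 UMIs in 1712 cells), the CKO library 26.6 CPM (21.1 to 33.1, 80 UMIs in 2085 cells). OB-like cells held 8 UMIs in control (19.4 CPM, 8.39 to 38.3) and 1 in CKO (4.04 CPM, 0.102 to 22.5). In chondrocyte-like cells at 16 weeks there was 1 *Bcl3* UMI in the control library (62 cells) and 0 in CKO (19 cells), with an interval of 0 to 45.1 CPM. In PMSC-like cells there were 3 UMIs in control (61 cells) and 0 in CKO (31 cells), with an interval of 0 to 59.2 CPM. These classes, the nearest to the sorted populations, held too few UMIs for a difference in *Bcl3* of the size seen in bulk to be detectable at this depth.

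The BMSC-like cells at 16 weeks formed 2 clusters, which are given apart because the second was led by *Hbb-bs* and *Hba-a1*, genes of another class. In the cluster of 2054 cells led by *Ccl2*, *Fosb* and *Fos*, control cells gave 39.7 CPM of *Bcl3* (31.1 to 50) against 30.0 CPM (23.4 to 37.9) for CKO cells. In the other, of 1743 cells with a median of 829 UMIs, control cells gave 39.2 CPM (27.3 to 54.6) against 14.9 CPM (7.16 to 27.4). Erythroid RNA in BMSC-like cells differed between these libraries, at 4839 CPM in control and 499 CPM in CKO, as did the dissociation stress list, at 2891 and 7024 CPM. Their part in the values of the members was not tested.

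Of the other members, *Nfkbia*, *Nfkb1*, *Nfkb2*, *Nfkbie*, *Relb* and *Rel* are given for the same clusters, whereas *Rela*, *Tnfaip3* and *Birc3* are not. The cluster led by *Ccl2* comes first and then the one led by *Hbb-bs*, with control before CKO. *Nfkbia* was at 343 CPM (316 to 371) and 392 CPM (367 to 418) in the first, and 237 CPM (206 to 271) and 237 CPM (202 to 277) in the second. *Nfkb1* was at 50.8 CPM (40.9 to 62.3) and 51.0 CPM (42.2 to 61.0), then 65.0 CPM (49.4 to 84.1) and 62.7 CPM (45.2 to 84.7). These intervals overlapped in each cluster, narrowly for *Nfkbia* in the first.

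*Nfkb2* was at 34.2 CPM (26.2 to 43.9) and 25.7 CPM (19.6 to 33.1) in the first cluster, and 35.9 CPM (24.5 to 50.6) and 14.9 CPM (7.16 to 27.4) in the second. *Nfkbie* was at 47.5 CPM (38.0 to 58.6) and 29.5 CPM (22.99 to 37.4), then 31.4 CPM (20.9 to 45.4) and 20.9 CPM (11.4 to 35.0). *Relb* was at 38.6 CPM (30.1 to 48.8) and 33.0 CPM (26.0 to 41.2), then 32.5 CPM (21.8 to 46.7) and 29.8 CPM (18.2 to 46.1). All 3 were lower in the CKO library in both clusters, and the intervals stood apart only for *Nfkbie* in the first, by less than 1 CPM. *Rel* had 6 and 19 UMIs in the first cluster (3.31 CPM, 1.22 to 7.21, and 8.14 CPM, 4.90 to 12.7) and 3 and 7 in the second.

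**Figure D5:**
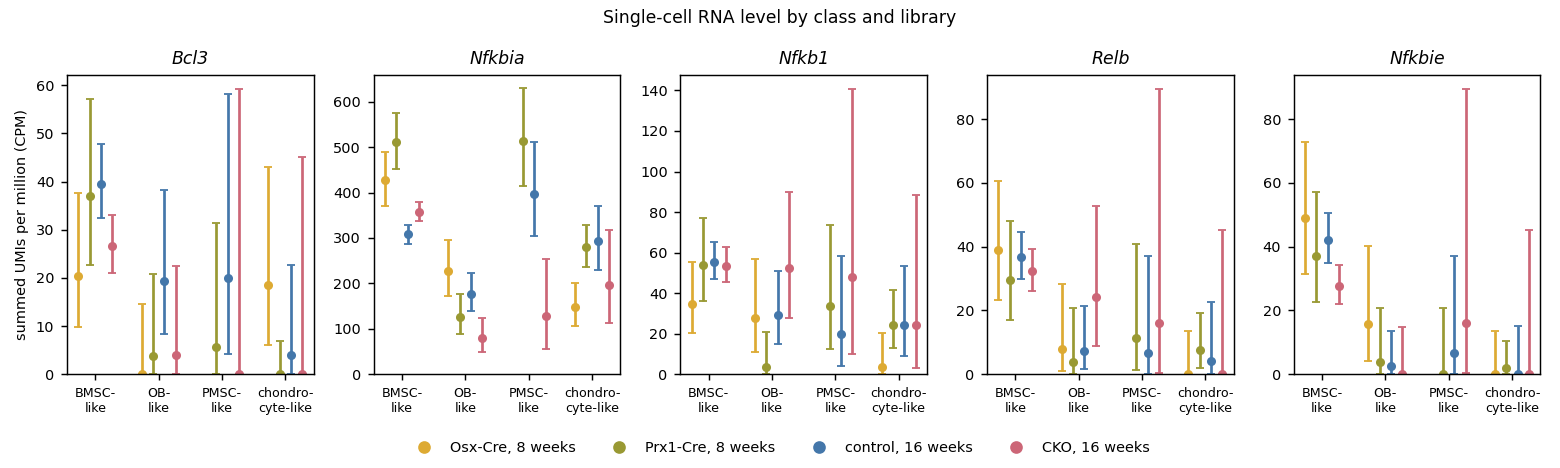
RNA level from summed UMIs (CPM, linear axis from 0) of 5 members in 4 cell classes of the single-cell libraries, with bars giving 95% exact Poisson intervals. *Nfkbie* is at 27.6 to 49.0 CPM in BMSC-like cells of the 4 libraries, and the PMSC-like and chondrocyte-like intervals of the CKO library are wide. The Osx-Cre library is left out of the PMSC-like class, where it had 2 cells.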

How the data were processed

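Bulk RNA counts were deposited by the authors as unique-molecule counts per gene (modified Smart-seq2, STAR and HTSeq, mm10). The authors' ATAC peak files (Bowtie2, MACS2 run per library, mm10) hold a pileup signal, a fold enrichment and −log10 p- and q-values, of which the pileup signal and the −log10 q-value were used. Their fold ratio at each summit was kept only to describe regions. Single-cell matrices were deposited as UMI counts (10x Genomics 3′ v2, Cell Ranger). Tools and the build are as the paper's methods and the submitters' processing notes name them.

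The members and lists were chosen with earlier results of these data known. Genes named from the other lists were the 2 with the smallest p per list and population, since none passed. The promoters of *Nfkbia* and *Nfkb2* were chosen for printing after their values were seen, because *Relb*, with the largest log2 fold change of a member in pSSPCs, had no window. Replicates 2 and 3 of each RNA group were summed (n = 2) and tested with edgeR 4.0.16 (TMM, filterByExpr, quasi-likelihood, an adjusted p under 0.05), with DESeq2 1.42.0, a replicate block and left-out libraries as alternatives. Same-numbered control and CKO libraries deviated together (correlations of 0.539 to 0.584 over 13173 genes; the pairing comes from the shared numbers and these correlations), so that the blocked fit is given too. Pileups were compared with limma 3.58.1 in regions with a peak in all 6 libraries. Regions carry GENCODE M21 annotation (GRCm38, the same build as mm10). Cells were clustered with Seurat 5.3.0 (2000 variable features without the members, 20 components and resolution 0.14 at 8 weeks, 22 and 0.15 at 16 weeks), and libraries were integrated by reciprocal PCA, chosen after canonical correlation had put osteoblast and periosteal cells in 1 cluster. Doublets were not called. A mixed chondrocyte and periosteal cluster at 16 weeks was clustered again alone. The edgeR and limma steps were tested on simulated data. The study's own tests of these libraries were not used.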

Additional observations from a re-analysis of the deposited data

Results flagged for a closer look

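*Nfkb1* RNA stood out because the libraries of the 2 populations moved in opposite directions between genotypes. In gpSSPCs the log2 ratio of CKO to control (CPM + 1) was negative for each replicate number (-2.21, -0.09 and -0.04), and in pSSPCs it was positive for each (0.23, 0.46 and 0.68). The genotype effect in gpSSPCs minus that in pSSPCs was -0.84 ± 2.26 (log2, SE), which did not pass edgeR's quasi-likelihood test (unadjusted p = 0.72, adjusted p = 0.9999). The replicate 1 libraries had between 2 and 21 *Nfkb1* counts each, and the values of replicates 2 and 3 in gpSSPCs lay close to 0.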

How the results depend on the processing

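No member passed an adjusted p under 0.05 in either genotype comparison under any fit run. The replicate block left 0 members called in each RNA and ATAC comparison and moved the calls over all genes from 0 to 12 in gpSSPCs, 38 in pSSPCs, 476 between control populations and 2 for the difference in genotype effect, and those over ATAC regions in pSSPCs from 599 to 244. *Bcl3* kept its sign in all 13 alternative fits per population (log2 fold changes of 0.69 to 1.48 in gpSSPCs and 0.87 to 1.5 in pSSPCs; adjusted p of 0.356 to 1 and 0.228 to 1). DESeq2 with each library as 1 sample called 25 genes in gpSSPCs and 108 in pSSPCs, among them *Icam1* (-2.06) and *Ccl2* (1.30). The ATAC calls in pSSPCs fell to 2 without replicate 1 and 0 without replicate 3, and to 251 with pileup scaled by tag number. Peak presence at the members changed with the settings. Regions gained in CKO pSSPCs went from 1 to 0 when a peak had to cover at least 50% of its merged region. Regions only in control pSSPCs went from 2 to 1 at a −log10 q-value of at least 5 and to 0 under the 50% rule.

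Without replicate 1, the remaining libraries of a group are the nearly identical replicates 2 and 3, and 4 members (of 9169 genes called) then passed between control populations and 6 members (of 6866 genes) for the difference in genotype effect. Those calls rest on the sampling noise of such libraries. Some members changed sign. In gpSSPCs *Rela* was -0.06 with each library as 1 sample, -0.13 with the block in addition and -0.04 with DESeq2, and *Relb* was -0.28 with the block. In pSSPCs *Nfkbia* was -0.08 with each library as 1 sample and -0.10 with DESeq2, and *Nfkb2* was 0.50 with the block and each library. Between control populations *Rela* was -0.01 with DESeq2 and -0.02 with RLE size factors. With ATAC pileup scaled by tag number, the start-site pileup difference in gpSSPCs was -0.04 for *Rel*, -0.05 for *Rela*, -0.09 for *Nfkb2*, -0.10 for *Nfkb1* and -0.04 for *Relb*.

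Genotype effects were refitted without each single library and recomputed, as values with no test, without replicate 1 of both genotypes. In gpSSPCs they ran from -0.97 to 0.65 for *Nfkb1*, -0.40 to 1.16 for *Rel*, -0.42 to 0.15 for *Rela*, -0.24 to 0.89 for *Nfkbia*, -0.46 to 0.07 for *Nfkbie* and -1.25 to 0.20 for *Tnfaip3*. In pSSPCs they ran from -0.28 to 1.47 for *Nfkb1*, -1.76 to 2.09 for *Nfkb2*, -0.38 to 0.04 for *Rela*, -0.57 to 0.29 for *Nfkbia*, -0.57 to 0.75 for *Tnfaip3* and -0.73 to 1.30 for *Birc3*. The negative value of *Rel* in gpSSPCs and the positive one of *Rela* in pSSPCs came only without replicate 1 of both genotypes, and *Birc3* in pSSPCs fell no further than -0.01 without a single library. Of the genes named from the other lists, *Usp7* (-1.36 to 0.06) and *Tax1bp1* (-0.13 to 0.52) in gpSSPCs and *Cd14* (-1.52 to 0.02) in pSSPCs changed sign, in each case without replicate 1 of both genotypes. With a replicate number left out of every group at once, the difference between control populations ran from -2.01 to 1.08 for *Nfkb2* and -0.40 to 0.11 for *Rel*. The difference in genotype effect ran from -0.57 to 0.39 for *Bcl3*, -1.20 to 1.83 for *Nfkb2*, -0.43 to 0.41 for *Rela*, -1.19 to 0.99 for *Relb* and -2.75 to 0.41 for *Birc3*. Without a replicate number of both genotypes, the start-site pileup difference in gpSSPCs ran from -0.05 to 0.08 for *Bcl3* and -0.28 to 0.03 for *Nfkbie*. The cause of these changes was not tested.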
